A study of Rattus norvegicus with 65 samples.

Results

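The insulin-like growth factor (IGF) system was described here through 10 genes: the ligands Igf1 and Igf2, the receptors Igf1r and Igf2r, and the binding proteins Igfbp2, Igfbp3, Igfbp4, Igfbp5, Igfbp6 and Igfbp7. They were chosen by name and not by any measured value. All 10 listed symbols were among the 14554 genes of the table, and no member was removed by a filter on low values. Igfbp2 had passed the authors' own removal of genes with low counts only through its doxorubicin libraries, as described below.

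IGF ligands are secreted peptides that promote growth and survival by activating the receptor tyrosine kinase encoded by Igf1r, which signals through insulin receptor substrates to PI3K and AKT and through RAS to ERK. The receptor encoded by Igf2r, which also binds mannose-6-phosphate, carries IGF2 to lysosomes for breakdown. Most extracellular IGF is held by binding proteins, which block or prolong its action and are cut by proteases such as pappalysin. In the heart, fibroblasts and other stromal cells are a main source of IGF ligands and binding proteins, and cardiomyocytes carry the receptors.

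RNA was measured in primary neonatal rat cardiomyocytes treated with 10 mM 5-fluorouracil (5FU, a pyrimidine analogue that disturbs thymidylate and RNA synthesis), 2.5 mM acetaminophen (Ace, an analgesic) or 1.25 µM doxorubicin (Dox, an anthracycline that traps topoisomerase II on DNA). Controls received DMSO alone, at 1% for 5FU (DMSO1) and at 0.25% for Ace and Dox (DMSO2), so the Ace and Dox comparisons share their controls. At 6 h there were 6 libraries each of DMSO1, 5FU and Ace and 7 each of DMSO2 and Dox. At 24 h there were 6 each of DMSO1 and 5FU and 7 each of DMSO2, Ace and Dox. All groups carry the same limits: hearts of several litters were pooled before plating, so libraries are parallel cultures of a shared preparation and p-values measure the spread between cultures. The cells were starved of serum and then kept in serum-free medium with an insulin-containing supplement, and insulin can itself engage this pathway. The rat strain and the day of harvest after birth were not given in the sources used here.

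Library totals ran from 14332827 to 25738297 estimated counts. The 3 libraries farthest from their own groups were DMSO1 24 h library 1, 5FU 6 h library 1 and Dox 24 h library 7 (numbers are labels within a group only). All 9 measured cardiomyocyte markers had a median above 3 counts in every group, and so had all 10 markers each of fibroblasts and of mural and smooth muscle cells, so detection alone does not tell these cell types apart. Nearly all endothelial and macrophage markers passed too, and the levels below are those of a culture with markers of several cell types. In such bulk samples, fewer cells of a type and less RNA per cell cannot be told apart. Levels are given as CPM, counts scaled to a common library size, after TMM scaling. They are not divided by transcript length and are therefore compared between groups, not between genes.

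**Figure D1:**
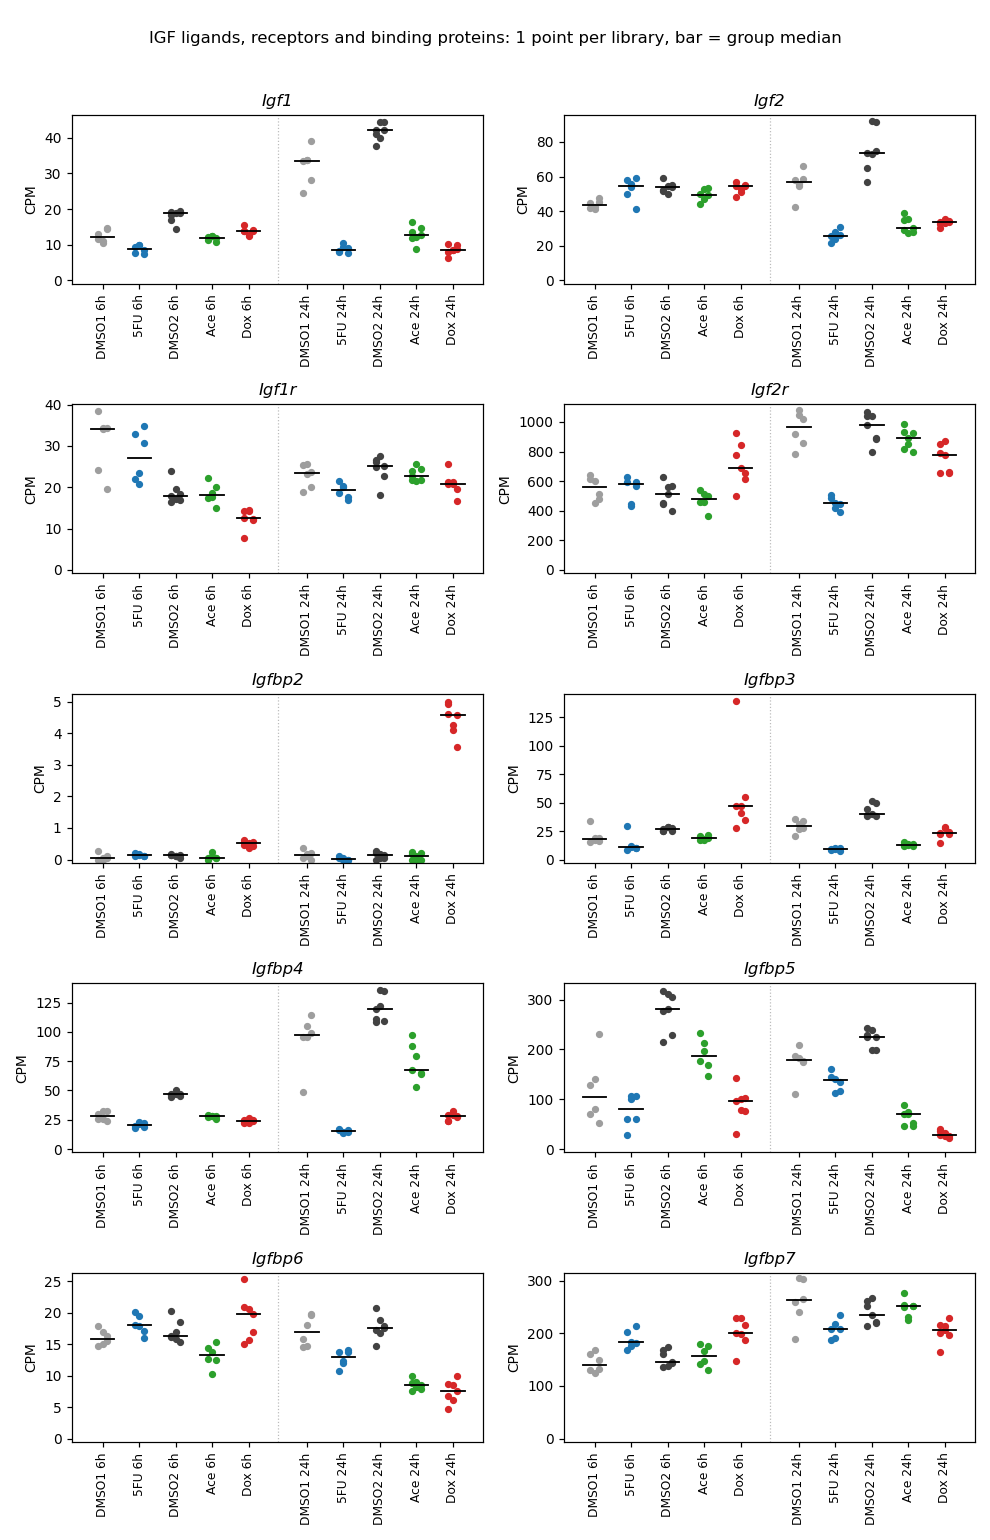
Level of each of the 10 genes in all 65 libraries (y axis: CPM after TMM scaling, linear from 0; x axis: group and time), with 1 point per library and a bar at the group median. Igf1 and Igfbp4 were high in the 24 h controls (Igf1 medians 33.5 and 42.2 CPM), and Igfbp2 left the region near 0 in Dox, to a median of 4.58 CPM at 24 h.

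At 24 h the ligands and most binding proteins were lower with every drug, while Igfbp2 rose with Dox. A gene was called at a Benjamini-Hochberg false discovery rate (FDR) below 0.01 in edgeR's quasi-likelihood test over all 14554 genes. With 5FU at 24 h, 7 of the 10 members were lower and 0 higher, where 27.8% of all genes were called lower and 28.0% higher. The 7 were Igf1, Igf2, Igf2r, Igfbp3, Igfbp4, Igfbp6 and Igfbp7. With Ace at 24 h, 6 members were lower and 0 higher, against 19.1% and 18.2% of all genes, and these were Igf1, Igf2, Igfbp3, Igfbp4, Igfbp5 and Igfbp6. With Dox at 24 h, 7 members were lower (Igf1, Igf2, Igf2r, Igfbp3, Igfbp4, Igfbp5 and Igfbp6) and Igfbp2 was higher, against 41.0% of all genes lower and 40.4% higher. The counts of called members with Dox here and below include Igfbp2, which stayed in the table only through its Dox libraries. The median log2 fold change of the members was -1.09 with 5FU, -0.88 with Ace and -1.03 with Dox, beside medians within 0.01 of 0 over all genes in each.

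At 6 h fewer members were called with 5FU and Ace, while with Dox the number called was 8 at each time and those at 6 h went both ways. With 5FU, Igf2 and Igfbp7 were higher and Igf1 and Igfbp4 lower, so 2 members were called each way, against 23.4% of all genes higher and 24.5% lower. With Ace, 3 members were lower (Igf1, Igfbp4 and Igfbp6) and 0 higher, against 15.2% and 16.5% of all genes. With Dox, 4 members were higher (Igf2r, Igfbp2, Igfbp3 and Igfbp7) and 4 lower (Igf1, Igf1r, Igfbp4 and Igfbp5), against 31.5% and 32.7%. The members' median log2 fold change was -0.09, -0.44 and 0.08 in this order. Igf1 and Igfbp4 were the members called lower in all 6 drug comparisons.

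**Figure D2:**
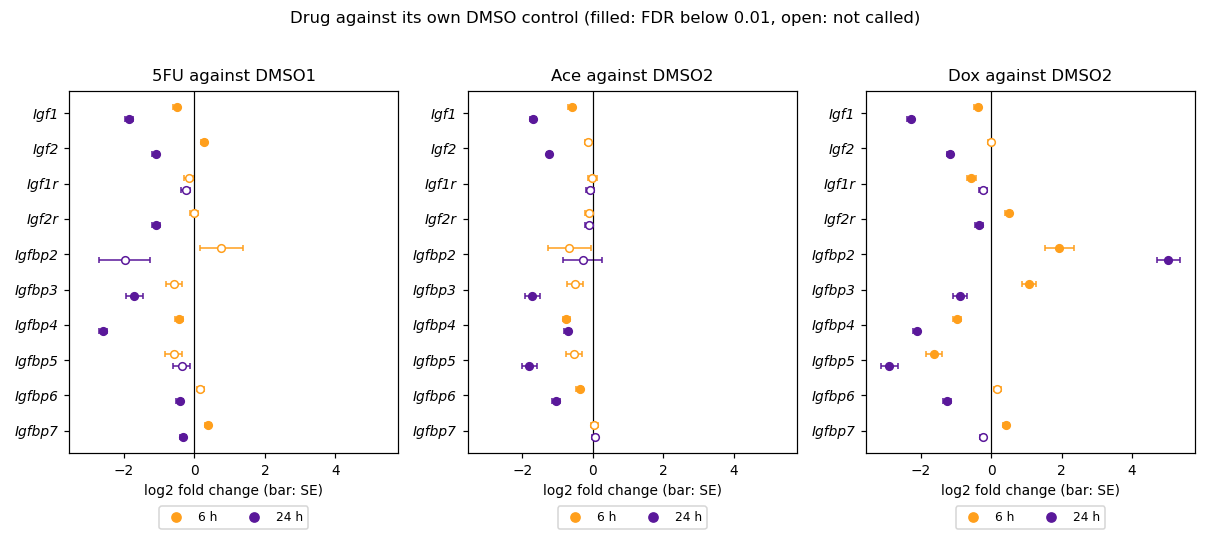
Log2 fold change of each gene against the drug's own DMSO control (x axis; bars are the SE) at 6 h and 24 h, with filled points at an FDR below 0.01 and open points not called. Most 24 h points lie to the left of 0, and Igfbp2 in Dox stands at 1.93 at 6 h and 5.03 at 24 h.

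Igf1, the ligand with the highest affinity for the IGF1 receptor, fell with each drug, and by more at 24 h than at 6 h. In DMSO1 it ran from 10.6 to 14.7 CPM (median 12.3) at 6 h and from 24.4 to 39.1 (median 33.5) at 24 h. In 5FU the range was 7.38 to 10.0 (median 8.91) at 6 h and 7.75 to 10.6 (median 8.66) at 24 h. No 5FU library reached the lowest DMSO1 library of its time point, and the level in 5FU stayed near its 6 h value while that of the control was higher at 24 h. The log2 fold change was -0.51 ± 0.11 (SE, FDR 4.76e-05) at 6 h and -1.86 ± 0.10 (FDR 1.41e-23) at 24 h.

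In DMSO2, Igf1 ran from 14.4 to 19.4 CPM (median 18.8) at 6 h and from 37.7 to 44.5 (median 42.2) at 24 h. Ace libraries held 10.8 to 12.6 (median 12.0) and 8.69 to 16.4 (median 12.8), and Dox libraries 12.4 to 15.6 (median 13.9) and 6.26 to 10.2 (median 8.44). Every Ace library was below every control of its time point, and so was every Dox library at 24 h, whereas Dox and DMSO2 overlapped at 6 h. The changes with Ace were -0.60 ± 0.10 (FDR 1.11e-06) at 6 h and -1.69 ± 0.09 (FDR 1.3e-23) at 24 h. With Dox they were -0.38 ± 0.09 (FDR 0.000256) and -2.28 ± 0.10 (FDR 1.61e-31), the last leaving 0.205 times the control level. Ordered by median, the 2 groups of 24 h controls came first with overlapping ranges, and the lowest were 5FU and Dox at 24 h and 5FU at 6 h, which overlapped too.

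Igf2, the ligand of fetal and neonatal growth and an imprinted gene, was little changed at 6 h and lower at 24 h with all 3 drugs. Its DMSO1 libraries ran from 41.5 to 47.7 CPM (median 43.4) at 6 h and from 42.4 to 66.4 (median 56.7) at 24 h, and 5FU from 41.4 to 59.0 (median 54.8) and from 21.4 to 30.8 (median 25.9). The 6 h groups overlapped, and at 24 h all 5FU libraries were below all DMSO1 libraries. Igf2 rose with 5FU at 6 h by 0.27 ± 0.09 (FDR 0.00574) and fell at 24 h by 1.10 ± 0.09 on the log2 scale (FDR 1.33e-16). The 6 h call was lost when library size alone was used for scaling (0.20, FDR 0.0412), in 7 of the 12 fits without 1 library, and without the 3 farthest libraries (0.24, FDR 0.0136).

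DMSO2 held 50.0 to 59.2 CPM of Igf2 (median 53.9) at 6 h and 56.6 to 92.1 (median 73.3) at 24 h. At 24 h Ace ranged from 27.5 to 39.2 (median 30.1) and Dox from 30.2 to 35.3 (median 33.8), both wholly below the controls. The changes at 24 h were -1.23 ± 0.08 with Ace (FDR 5.18e-20) and -1.18 ± 0.08 with Dox (FDR 9.98e-21). At 6 h the values were -0.13 ± 0.08 with Ace (FDR 0.237) and -0.02 ± 0.08 with Dox (FDR 0.872).

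Fibroblast markers were lower in the drug groups at 24 h as well. Of 10 fibroblast markers, 10 were lower with 5FU at 24 h (median log2 fold change -1.25), 9 with Ace (-1.03) and 10 with Dox (-2.14). Of all genes, 27.8%, 19.1% and 41.0% were lower in these comparisons. The summed fibroblast level at 24 h ranged from 10018 to 19963 CPM in DMSO1, 5201 to 5873 in 5FU, 15171 to 18964 in DMSO2, 7307 to 9334 in Ace and 1947 to 4101 in Dox. In these groups no drug library overlapped its controls. At 6 h 3, 7 and 6 of the 10 were lower with 5FU, Ace and Dox, beside 24.5%, 15.2% and 32.7% of all genes. None of the 10 was higher. Each of the 10 kept a group median above 3 counts in all groups. The part of these markers in the fall of the ligands and binding proteins was not tested.

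Markers of other cell types were called too. Over all genes at 24 h, 27.8% were lower and 28.0% higher with 5FU, and 19.1% and 18.2% with Ace. With Dox the shares were 41.0% and 40.4% at 24 h, and 32.7% and 31.5% at 6 h. Cardiomyocyte markers were lower with Dox at 24 h (8 of 9, median -1.80) and 5FU (5 lower and 1 higher of 9, median -0.33), and with Ace 3 of 9 were lower (median -0.08). Their summed level was 12905 to 17526 CPM in Dox at 24 h and 35926 to 45530 in DMSO2. At 6 h with Dox, 5 of 9 cardiomyocyte, 4 of 10 macrophage and 5 of 10 mural and smooth muscle markers were higher. In the same lists 3, 2 and 3 were lower. Endothelial markers fell with Dox at 6 h (9 of 9, median -1.55) and 24 h (8 of 9, median -2.62), and 6 of 9 fell with each of 5FU and Ace at 24 h. Macrophage markers were lower in Dox at 24 h (8 of 10, with 1 higher, median -1.62), where 1 of them had a median of at most 3 counts. With Ace at 24 h 6 of the 10 were lower and 0 higher (median -0.35), and with 5FU 3 were lower and 1 higher (median -0.02). Of the 10 mural and smooth muscle markers, 7 fell with 5FU, 6 with Ace and 6 with Dox at 24 h, and 2, 0 and 3 rose. Of 8 epicardial markers, 6 fell with 5FU, 5 with Ace and 4 with Dox, and 0, 1 and 3 rose, and of 3 measured hepatocyte markers 0, 1 and 2 fell and 1, 0 and 0 rose. Some of these counts, such as the epicardial with Dox and the falls of macrophage markers with 5FU, lay near the shares of all genes. The part of these markers was not tested either.

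**Figure D3:**
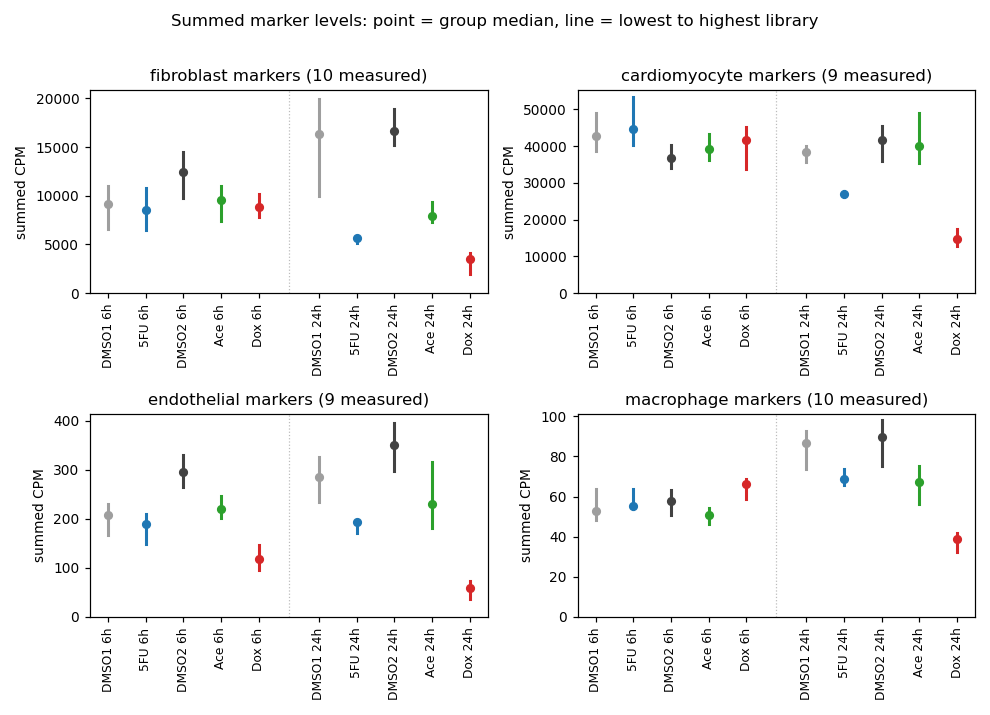
Summed CPM of marker genes of 4 cell types (y axis, linear from 0) by group and time (x axis), with a point at the group median and a line from the lowest to the highest library. The fibroblast sum at 24 h reached 19963 CPM in the highest DMSO1 library and 4101 CPM in the highest Dox library.

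Igf1r, the signalling receptor, was called in 1 drug comparison, Dox at 6 h. There it ran from 7.82 to 14.5 CPM (median 12.6) in Dox and from 16.4 to 24.0 (median 17.9) in DMSO2, without overlap. Its change was -0.57 ± 0.12 (FDR 3.83e-05) at 6 h, and at 24 h it was -0.22 ± 0.12 (FDR 0.0689), with ranges of 16.8 to 25.7 in Dox and 18.1 to 27.7 in DMSO2. With 5FU the values were -0.17 ± 0.12 (FDR 0.247) and -0.25 ± 0.13 (FDR 0.0781), and with Ace -0.01 ± 0.12 (FDR 0.948) and -0.08 ± 0.12 (FDR 0.583). The 6 h cultures with 1% DMSO were spread widely, from 19.6 to 38.5 CPM in DMSO1 and from 20.8 to 34.8 in 5FU.

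Igf2r, the clearance receptor for IGF2, was lower with 5FU at 24 h and moved in opposite directions at the 2 times with Dox. At 24 h DMSO1 held 786 to 1083 CPM (median 968) and 5FU 389.6 to 505 (median 449.5), with no overlap. The change was -1.08 ± 0.11 (FDR 9.31e-13), while at 6 h it was -0.02 ± 0.11 (FDR 0.896). In Dox the level ran from 501 to 925 CPM (median 689.7) at 6 h and from 653 to 869 (median 779) at 24 h, and in DMSO2 from 397 to 629.6 (median 511) and from 795 to 1065 (median 978). Groups overlapped at both times. The Dox changes were 0.49 ± 0.10 (FDR 2.9e-05) and -0.35 ± 0.10 (FDR 0.00173), and the second was not called with library size alone (-0.30, FDR 0.0102) or without Dox library 3 (-0.29), 6 or 7. Ace gave -0.10 ± 0.11 (FDR 0.464) and -0.11 ± 0.10 (FDR 0.403).

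Igfbp2, a binding protein abundant in fetal tissues, was at or near 0 counts in every group but Dox. The highest library outside Dox had 7 counts. The authors removed genes with counts below 10 throughout, so Igfbp2 stayed in the table only through its Dox libraries. Tests of Igfbp2 that involve Dox are therefore conditioned on its rise there, and no FDR is given for them. In DMSO2 the libraries held 1 to 4 counts at 6 h and 0 to 5 at 24 h, and in Dox 6 to 11 counts at 6 h and 61 to 114 at 24 h. As levels, Dox ran from 0.366 to 0.612 CPM (median 0.518) and from 3.58 to 5.00 (median 4.58), above every library of every other group at 24 h. The fitted log2 fold change was 1.93 ± 0.42 at 6 h and 5.03 ± 0.33 at 24 h. Pooled over libraries, 62 counts in Dox against 18 in DMSO2 at 6 h gave a ratio of CPM of 3.95 (95% exact binomial interval 2.31 to 7.10), and 572 against 17 at 24 h gave 34.2 (21.2 to 59.1). These intervals cover counting error only. With 5FU the sums were 16 against 10 and 4 against 17 counts, and with Ace 9 against 18 and 15 against 17. The ratios were 1.74 (0.742 to 4.29) and 0.221 (0.054 to 0.676) with 5FU, and 0.606 (0.240 to 1.42) and 0.808 (0.376 to 1.72) with Ace. None of the 4 was called. For 5FU at 24 h the interval lay below 1 and the fitted value was -1.98 (FDR 0.0135), which was called without the 3 farthest libraries (-2.18, FDR 0.0075).

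Igfbp5, which binds IGF in the matrix, lies next to Igfbp2 among the protein-coding genes of the rat GRCr8 assembly, and it changed the other way with Dox. DMSO2 libraries held 215 to 318 CPM (median 280.4) at 6 h and 198 to 243 (median 226) at 24 h, and Dox libraries 30.5 to 143 (median 95.4) and 21.5 to 40.8 (median 28.2). The groups did not overlap at either time. The change was -1.63 ± 0.22 (FDR 2.45e-09) at 6 h and -2.89 ± 0.24 (FDR 1.47e-17) at 24 h, which left 0.135 times the control level. With Ace it was -0.55 ± 0.23 (FDR 0.0444) at 6 h and -1.80 ± 0.22 (FDR 6.39e-10) at 24 h, where the Ace libraries ran from 46.9 to 87.8 (median 69.6), all below the controls. The Ace value at 6 h was called when only the compared groups were fitted (-0.55, FDR 0.00037). With 5FU the values were -0.59 ± 0.24 (FDR 0.0294) and -0.36 ± 0.23 (FDR 0.172). Its 6 h controls with 1% DMSO ranged from 51.7 to 230.1 CPM. Over the 12 fits without 1 library the 5FU value at 6 h ran from -0.74 to -0.28 (without DMSO1 library 3). It was called in 1 of them.

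The bases before the annotated starts of Igfbp2 and Igfbp5 are shown because these neighbours moved in opposite directions, and those of Igfbp3, Igfbp4 and Igfbp6 because these binding proteins fell with every drug at 24 h. Each is 250 bases long, from RefSeq on GRCr8, 5′ to 3′ in the direction of the gene. The search covered both strands for the GC box GGGCGG, the E-box CACGTG, the words TATAAA and TATATA, and the FOXO word GTAAACA, and capitals mark what it found. Igfbp2 is at chr9:81864561-81864810 on the plus strand, Igfbp5 at chr9:81914188-81914437 on the minus strand, Igfbp3 at chr14:86277945-86278194 on the minus strand, Igfbp4 at chr10:84491221-84491470 on the plus strand and Igfbp6 at chr7:135154669-135154918 on the plus strand.
Igfbp2: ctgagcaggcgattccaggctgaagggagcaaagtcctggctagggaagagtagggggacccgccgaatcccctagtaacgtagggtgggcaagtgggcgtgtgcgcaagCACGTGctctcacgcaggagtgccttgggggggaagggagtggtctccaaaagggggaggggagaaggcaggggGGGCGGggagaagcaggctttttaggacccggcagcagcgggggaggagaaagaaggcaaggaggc
Igfbp5: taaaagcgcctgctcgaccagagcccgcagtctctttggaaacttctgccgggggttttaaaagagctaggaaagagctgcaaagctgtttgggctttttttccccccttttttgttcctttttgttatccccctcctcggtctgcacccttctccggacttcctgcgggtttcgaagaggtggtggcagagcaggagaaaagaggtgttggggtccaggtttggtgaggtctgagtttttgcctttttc
Igfbp3: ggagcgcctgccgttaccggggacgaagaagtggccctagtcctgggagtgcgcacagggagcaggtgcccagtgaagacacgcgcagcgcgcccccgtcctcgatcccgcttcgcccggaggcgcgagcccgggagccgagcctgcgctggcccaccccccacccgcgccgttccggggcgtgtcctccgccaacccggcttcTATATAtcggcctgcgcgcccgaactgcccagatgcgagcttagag
Igfbp4: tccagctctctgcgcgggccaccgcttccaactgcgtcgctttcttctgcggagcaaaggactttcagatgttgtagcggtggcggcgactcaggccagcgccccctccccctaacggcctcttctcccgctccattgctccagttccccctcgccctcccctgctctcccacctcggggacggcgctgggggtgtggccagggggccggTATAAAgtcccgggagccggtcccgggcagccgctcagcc
Igfbp6: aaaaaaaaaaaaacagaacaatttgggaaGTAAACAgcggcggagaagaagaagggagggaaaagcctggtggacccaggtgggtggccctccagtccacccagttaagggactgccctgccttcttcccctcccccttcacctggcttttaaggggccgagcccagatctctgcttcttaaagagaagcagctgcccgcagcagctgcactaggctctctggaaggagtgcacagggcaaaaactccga

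Igfbp2 had an E-box starting 140 bases and a GC box 66 bases before the start. In Igfbp5 none of these words was found in this window. Igfbp3 had TATATA 46 bases, Igfbp4 TATAAA 40 bases and Igfbp6 the FOXO word 221 bases before the start, and no other member had the FOXO word. Over all 33469 promoters of the table, the share with the word in these 250 bases was 30.5% for the GC box, 5.59% for the E-box, 12.9% for TATAAA, 5.45% for TATATA and 3.21% for the FOXO word. All 10 members matched the promoter table, and Igf2 had 2 entries. A match is a description of letters and not a tested site.

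Igfbp3, the main carrier of IGF in serum, rose with Dox at 6 h and was lower at 24 h, a turn that Igf2r showed as well. At 6 h Dox libraries ran from 27.3 to 139 CPM (median 47.0) and DMSO2 from 24.9 to 28.6 (median 26.4), with an overlap. At 24 h Dox held 14.8 to 28.9 (median 22.9) and DMSO2 37.9 to 51.8 (median 40.3), without one. Igfbp3 rose with Dox at 6 h by 1.07 ± 0.20 (FDR 3.69e-06) and fell at 24 h by 0.89 ± 0.20 on the log2 scale (FDR 7.62e-05). The highest 6 h value, 139 CPM, was that of Dox library 4, without which the 6 h change was 0.66 and was still called.

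Ace and 5FU gave falls of Igfbp3 at 24 h. Ace held 11.7 to 15.0 CPM (median 13.0), for a change of -1.73 ± 0.21 (FDR 4.22e-10). At 6 h Ace libraries ran from 16.7 to 21.5 CPM, all below those of DMSO2 (24.9 to 28.6). The 6 h value was -0.50 ± 0.22 (FDR 0.0558), and it was called when only the compared groups were fitted (-0.50, FDR 3.73e-06). 5FU held 7.48 to 10.3 CPM (median 9.04) against 20.6 to 35.9 (median 29.6) in DMSO1, for -1.71 ± 0.24 (FDR 8.56e-09). At 6 h 5FU ran from 8.33 to 29.4 (median 10.6) and DMSO1 from 15.2 to 34.1 (median 17.9), and the value was -0.59 ± 0.23 (FDR 0.0275). Without 5FU library 1, the highest of its group, that 6 h value was -0.97 and was called.

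Igfbp4, an inhibitory binding protein that pappalysin cuts, fell with all 3 drugs at both times. In DMSO1 it ran from 23.6 to 32.4 CPM (median 28.0) at 6 h and from 48.4 to 114 (median 97.7) at 24 h, and in 5FU from 18.0 to 23.4 (median 20.9) and from 13.9 to 16.9 (median 15.5). The 5FU libraries were below all controls at each time. The change was -0.45 ± 0.12 (FDR 0.000773) at 6 h and -2.59 ± 0.12 (FDR 1.4e-27) at 24 h, or 0.166 times the control.

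DMSO2 held 44.5 to 50.0 CPM of Igfbp4 (median 46.7) at 6 h and 108 to 135 (median 119.8) at 24 h. Dox ran from 22.1 to 26.2 (median 23.6) and from 23.6 to 32.8 (median 28.5), and Ace from 25.5 to 29.1 (median 28.3) and from 53.0 to 97.6 (median 67.8). All 4 drug groups lay below their controls. Dox gave -0.97 ± 0.11 (FDR 1.93e-12) and -2.11 ± 0.10 (FDR 5.19e-28), and Ace -0.75 ± 0.11 (FDR 5.8e-08) and -0.71 ± 0.10 (FDR 1.17e-08).

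Igfbp6, which prefers IGF2 as its ligand, was lower at 24 h in all 3 drugs. DMSO2 held 14.7 to 20.7 CPM (median 17.5) at 24 h, Ace 7.52 to 9.88 (median 8.47) and Dox 4.76 to 9.89 (median 7.50), with no overlap. The changes were -1.05 ± 0.10 with Ace (FDR 3.73e-13) and -1.25 ± 0.11 with Dox (FDR 7.06e-17). 5FU held 10.7 to 14.1 (median 13.0) against 14.6 to 19.8 (median 17.0) in DMSO1, a change of -0.42 ± 0.11 (FDR 0.000675). At 6 h it fell with Ace (-0.37 ± 0.11, FDR 0.00297), a call lost in 3 of 13 fits without 1 library (Ace library 2, at -0.31, Ace library 6 or DMSO2 library 7), and the values were 0.17 ± 0.11 with 5FU (FDR 0.172) and 0.17 ± 0.10 with Dox (FDR 0.121).

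Igfbp7, a matrix protein that binds IGF only weakly, changed by no more than 0.41 in size where it was called against a drug's own control. At 6 h it rose with 5FU by 0.38 ± 0.09 (FDR 0.000379) and with Dox by 0.41 ± 0.09 (FDR 2.89e-05), and the Dox call was lost with library size alone (0.25, FDR 0.0153). The 6 h ranges were 125 to 169 CPM (median 141) in DMSO1, 168 to 214 (median 183) in 5FU, 136 to 174 (median 146) in DMSO2 and 147 to 229.9 (median 200.5) in Dox. Both pairs of groups overlapped. At 24 h the change was -0.33 ± 0.09 with 5FU (FDR 0.00146; not called without DMSO1 library 5, at -0.26, or 6), -0.23 ± 0.09 with Dox (FDR 0.0119) and 0.06 ± 0.08 with Ace (FDR 0.597).

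The drug effects at 24 h and at 6 h differed for most members with 5FU and Dox, and for 5 of 10 with Ace. In the interaction test, 7 members had a more negative effect of 5FU at 24 h than at 6 h (39.5% of all genes differed in either direction), 5 of Ace (11.6%) and 8 of Dox, with Igfbp2 the other way (64.8%). Among the called members, the largest negative difference with 5FU was that of Igfbp4, -2.14 ± 0.16 (FDR 9.25e-17). With Dox it was Igfbp3, -1.96 ± 0.29 (FDR 1.37e-08), beside Igf1 at -1.90 ± 0.13 (FDR 8.9e-20). Without Dox 6 h library 4 the Igfbp3 difference was -1.55, smaller in size than that of Igf1, so the order of the 2 rests on that library. Igfbp4 with Ace had nearly equal effects at the 2 times, with a difference of 0.04 and a 95% interval from -0.24 to 0.33. For Igfbp3 with 5FU the difference of -1.12 (FDR 0.00411) was -0.83 (FDR 0.0213) without the 3 farthest libraries and -0.74, not called, without 5FU 6 h library 1.

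The 24 h control levels enter all of these differences, and in the controls themselves the system changed with time in culture. Of the 10 members, 6 were higher at 24 h than at 6 h and 0 lower in the mean of both controls, against 32.7% and 31.9% of all genes. Igfbp4 rose by 1.54 ± 0.08 (FDR 2.19e-27), Igf1 by 1.28 ± 0.07 (FDR 7.14e-26), Igf2r by 0.85 ± 0.08 (FDR 1.78e-15) and Igfbp7 by 0.75 ± 0.06 (FDR 9.88e-17). Igfbp3 rose by 0.62 ± 0.15 (FDR 0.000241) and Igf2 by 0.42 ± 0.06 (FDR 6.53e-09). Igf1r, Igfbp2, Igfbp5 and Igfbp6 were not called. In the same comparison 9 of the 10 fibroblast markers were higher (median 0.40), and their part was not tested.

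**Figure D4:**
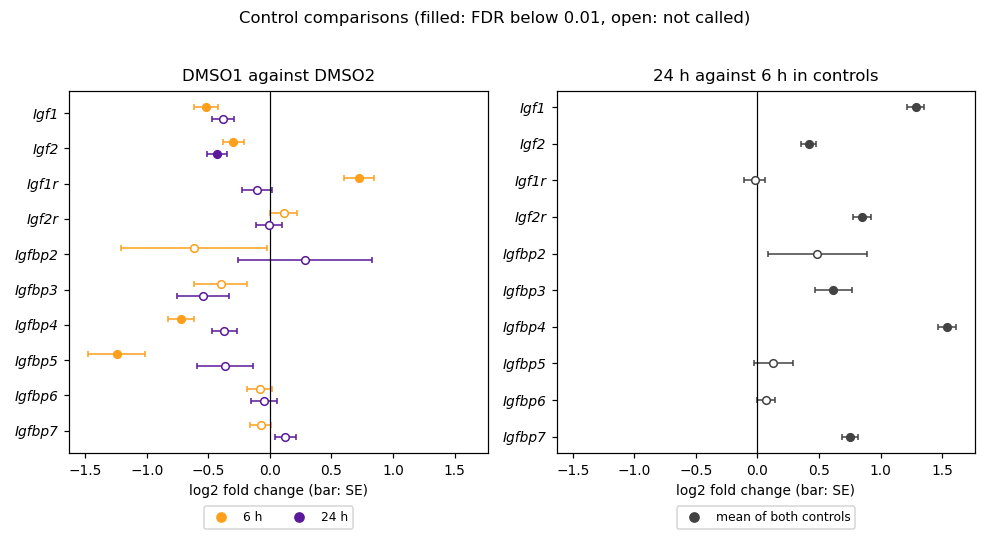
Log2 fold change (x axis; bars are the SE) of each gene between the 2 DMSO controls at 6 h and 24 h, and between 24 h and 6 h in the controls, with filled points at an FDR below 0.01. Igfbp5 at -1.24 and Igf1r at 0.72 lie farthest apart between the controls at 6 h, and Igfbp4 at 1.54 and Igf1 at 1.28 rose most with time.

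The DMSO share alone went with differences at 6 h. Between DMSO1 and DMSO2, 1 member was higher and 4 lower at 6 h, against 9.87% and 6.60% of all genes. Igf1r was higher in DMSO1 (0.72 ± 0.12, FDR 3.72e-06), and Igfbp5 (-1.24 ± 0.23, FDR 3.16e-05), Igfbp4 (-0.72 ± 0.11, FDR 5.95e-07), Igf1 (-0.52 ± 0.10, FDR 4.42e-05) and Igf2 (-0.30 ± 0.08, FDR 0.00569) were lower. The Igf2 call was lost in 7 of the 13 fits without 1 library (DMSO1 library 1, 2, 4 or 5 or DMSO2 library 1, 3 or 5), and its value ran from -0.32 to -0.28 over all 13 fits. The Igfbp4 and Igf2 groups did not overlap, and those of the other 3 did. Beside them, 7 of 10 fibroblast and 7 of 9 endothelial markers were lower in DMSO1, and their part was not tested. At 24 h 0 members were higher and 1 was lower, against 0.137% and 0.295% of all genes. That member was Igf2, at -0.43 ± 0.08 (FDR 0.00286). It was not called without DMSO1 library 1 (-0.36), without DMSO2 library 5 or 6, or when only the compared groups were fitted (-0.42, FDR 0.0549).

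Tests of the difference between drugs at 24 h called Igfbp4 and Igfbp5 in all 3 pairs. Between the Dox and 5FU effects 6 members differed, against 71.1% of all genes in either direction, between Ace and 5FU 5 (37.3%) and between Dox and Ace 6 (80.6%). Igfbp2 differed between Dox and Ace by 5.32 ± 0.34, a value conditioned on its rise in Dox. Igfbp5 was lower with Dox than with Ace by 1.09 ± 0.23 (FDR 2.04e-05) and lower with Ace than with 5FU by 1.44 ± 0.32 (FDR 0.000174), each on the log2 scale. Igfbp4 fell less with Ace than with 5FU, by a difference of 1.88 ± 0.15 (FDR 5.8e-16), and than with Dox (Dox minus Ace -1.41 ± 0.10, FDR 1.55e-19), while its difference of Dox and 5FU (0.47 ± 0.15, FDR 0.00468) was lost when only the compared groups were fitted (FDR 0.019) and without DMSO1 library 6 (0.42). Igf2r fell with 5FU below its Ace effect, with a difference of 0.97 ± 0.15 (Ace minus 5FU, FDR 2.83e-07). For Igf2 no pair of drugs was called apart, and the 95% intervals were -0.31 to 0.16 (Dox minus 5FU), -0.37 to 0.11 (Ace minus 5FU) and -0.11 to 0.22 (Dox minus Ace). The Igf1 difference of Dox and 5FU (-0.43, FDR 0.00527) was not called under DESeq2 size factors (-0.39, FDR 0.0111) or in 7 of 26 fits without 1 library (the smallest in size was -0.35). Doses differed between the drugs, and the DMSO share differed between 5FU and the others (Ace and Dox shared theirs), so these compare the treatments as given.

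The other genes of the pathway were taken from lists of its parts, with 67 of 72 measured. At 24 h 18 (26.9%) were higher and 24 (35.8%) lower with 5FU, beside 28.0% and 27.8% of all genes. With Ace 7 (10.4%) were higher and 16 (23.9%) lower, beside 18.2% and 19.1%, and with Dox 37 (55.2%) and 20 (29.9%), beside 40.4% and 41.0%. At 6 h the numbers were 13 (19.4%) and 22 (32.8%) with 5FU, beside 23.4% and 24.5%, 12 (17.9%) and 16 (23.9%) with Ace, beside 16.5% and 15.2%, and 29 (43.3%) and 15 (22.4%) with Dox, beside 31.5% and 32.7%. All 4 FOXO factors, transcription factors held back by AKT, were higher with Dox at both times. Foxo6 went from 3.83 to 6.99 CPM in DMSO2 (median 4.95) to 33.4 to 55.3 (median 47.6) in Dox at 24 h, a change of 3.21 ± 0.14 (FDR 1.94e-31). With Ace it was 0.58 ± 0.14 (FDR 0.000473). In 5FU at 6 h Foxo1 and Foxo3 rose by 1.08 ± 0.12 (FDR 2.56e-11) and 0.68 ± 0.08 (FDR 8.74e-12).

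Among genes that set access to IGF, Pappa and Stc1 rose with Dox and fell with 5FU and Ace. Pappa, the protease pappalysin, ran from 6.77 to 10.6 CPM (median 7.79) in DMSO1 and from 1.03 to 1.94 (median 1.48) in 5FU at 24 h, and from 7.33 to 9.75 (median 8.29) in DMSO2, from 2.68 to 4.70 (median 3.80) in Ace and from 13.0 to 24.7 (median 22.7) in Dox. None of the drug groups overlapped its control. The changes were -2.44 ± 0.22 with 5FU (FDR 4.82e-15), -1.17 ± 0.18 with Ace (FDR 1.22e-07) and 1.34 ± 0.16 with Dox (FDR 3.35e-11). Stc1, a stanniocalcin of the family that inhibits pappalysins, went the same ways at 24 h, by -0.96 ± 0.10, -0.49 ± 0.09 and 0.65 ± 0.09, and at 6 h in 5FU by -2.28 ± 0.11 (FDR 3.03e-27). Its relative Stc2 fell with 5FU (-0.98 ± 0.12) and Ace (-0.81 ± 0.10) at 24 h, and with Dox the value was -0.20 ± 0.10 (FDR 0.0672).

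Igfals, the acid-labile subunit that stabilises serum complexes of IGF and Igfbp3, had at most 7 counts in a DMSO2 library at 6 h and 5 at 24 h, and 18 to 33 and 31 to 50 counts in Dox. It was called higher in Dox at both times (FDR 6.16e-11 and 6.77e-15).

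The insulin receptor and the receptor substrates that pass on the IGF signal included large changes with Dox. Irs2 ran from 31.6 to 45.8 CPM (median 40.8) in DMSO2 and from 97.2 to 184 (median 135.5) in Dox at 24 h, a rise of 1.70 ± 0.10 (FDR 3.65e-25) after 0.80 ± 0.10 at 6 h (FDR 2.61e-10). With 5FU Irs2 changed by -0.53 ± 0.11 at 6 h (FDR 5.08e-05) and -0.82 ± 0.11 at 24 h (FDR 1.82e-09), and it was not called with Ace. Irs1 rose with Dox at 24 h by 1.10 ± 0.08 (FDR 9.8e-19) and fell with 5FU by 0.64 ± 0.10 on the log2 scale (FDR 5.74e-08). With Ace at 24 h Irs1 changed by -0.33 ± 0.09 (FDR 0.000991). Insr, the insulin receptor, fell with Dox at 24 h (-0.51 ± 0.09, FDR 2.51e-07) and was not called in the other 5 drug comparisons. Grb14, an adaptor that inhibits the insulin receptor, went from 159 to 188 CPM (median 171) in DMSO2 to 12.3 to 15.3 (median 13.2) in Dox, a change of -3.68 ± 0.08 (FDR 1.87e-48). Ghr, the growth hormone receptor upstream of Igf1, went from 207 to 223 (median 208) to 35.7 to 51.1 (median 37.3), a change of -2.41 ± 0.07 (FDR 5.21e-41). For both genes every Dox library was far below every control.

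**Figure D5:**
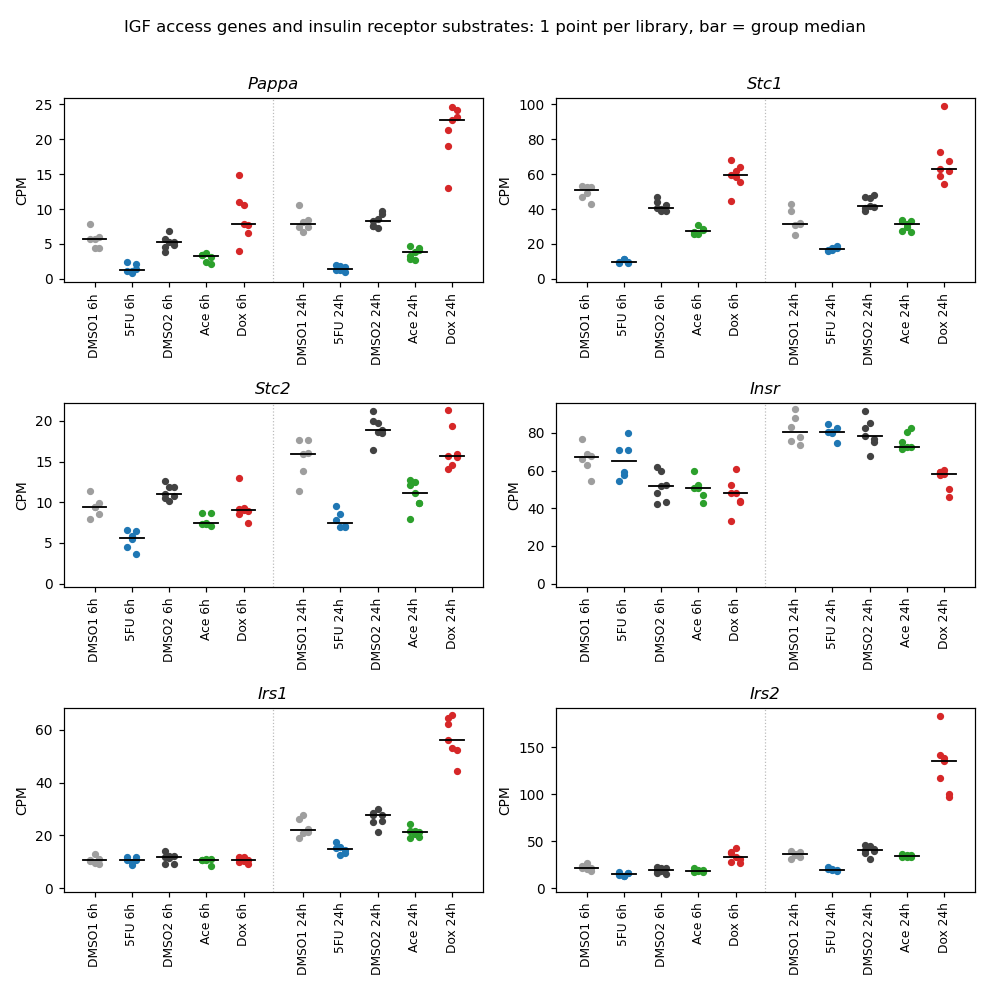
Level of Pappa, Stc1, Stc2, Insr, Irs1 and Irs2 in all 65 libraries (y axis: CPM, linear from 0; x axis: group and time), 1 point per library with a bar at the group median. Irs2 in Dox at 24 h, with a median of 135.5 CPM, and Pappa in Dox, with 22.7 CPM, lie above all controls of that time.

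The remaining pathway genes with the largest called changes belonged to several roles. Stat5a, which carries the growth hormone signal, fell with Dox at 6 h (-1.34 ± 0.06, FDR 1.17e-27), and so did Pik3ip1, an inhibitor of PI3K (-1.56 ± 0.08, FDR 4.92e-26). With 5FU at 6 h both rose, by 0.24 ± 0.06 (FDR 0.00143) and 0.62 ± 0.08 (FDR 3.88e-09). Irs3 rose at 6 h with Dox (1.19 ± 0.13, FDR 4.55e-12) and 5FU (0.48 ± 0.16, FDR 0.00718). It fell with Ace at 6 h (-0.76 ± 0.15, FDR 4.74e-05) and 24 h (-1.06 ± 0.14, FDR 5.34e-09). Plagl1, an imprinted transcription factor, fell with 5FU at 6 h (-1.03 ± 0.22, FDR 5.23e-05) and 24 h (-1.57 ± 0.21, FDR 1.8e-09). With Dox it rose at 6 h (1.16 ± 0.19, FDR 2.19e-07) and fell at 24 h (-1.47 ± 0.19, FDR 4.05e-10). The GTPase gene Nras rose with 5FU at 24 h (0.79 ± 0.06, FDR 7.91e-18) and fell with Dox (-0.83 ± 0.06, FDR 2.52e-20). Pik3cb, a catalytic subunit of PI3K, rose with Ace at 6 h (0.71 ± 0.08, FDR 4.61e-11) and 24 h (0.29 ± 0.08, FDR 0.00199). It rose with Dox as well, at 6 h (0.39 ± 0.08, FDR 9.91e-06) and 24 h (0.60 ± 0.08, FDR 4.49e-10). With 5FU it fell at 6 h (-0.29 ± 0.08, FDR 0.00218) and 24 h (-0.38 ± 0.09, FDR 0.000201). The kinase gene Map2k2 rose with Ace at 6 h (0.20 ± 0.05, FDR 0.00132) and 24 h (0.38 ± 0.05, FDR 3.53e-09). With Dox it rose at 6 h (0.16 ± 0.05, FDR 0.00413) and fell at 24 h (-0.30 ± 0.05, FDR 3e-07). With 5FU it fell at 24 h (-0.26 ± 0.06, FDR 4.8e-05).

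Over all 65 libraries, the genes with the most similar level to each member were found by Pearson's r of log2 CPM among 10509 genes with a mean count of at least 100. These values are descriptions, since libraries of a group share their treatment. Igf1 was closest to Postn, a matrix protein of activated fibroblasts (r = 0.957), and Igf2 to Dcn, the proteoglycan decorin (0.899). Igfbp4 was closest to Mest (0.929), Igfbp3 to Fndc1 (0.849), Igfbp5 to Ncf1 (0.908) and Igfbp6 to Serpinf1 (0.872). Igf1r was closest to Trio (0.919). Igf2r was nearest Nlgn2 (0.899), Igfbp2 nearest Acp6 (0.941) and Igfbp7 nearest Idua (0.842).

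The members also differed in how closely the cultures of a group agreed. The SD of log2 CPM pooled within groups was 0.158 for Igf2, 0.166 for Igfbp7 and 0.186 for Igf1, but 0.377 for Igfbp3 and 0.456 for Igfbp5. Igfbp3 was most variable in Dox at 6 h (SD 0.744) and Igfbp5 in DMSO1 at 6 h (0.783). After group means were removed, each member was compared with each summed marker list over the 65 libraries. The lowest of all these values was r = -0.61, for Igfbp5 with the mural and smooth muscle markers. The highest was r = 0.62, for Igfbp4 with the endothelial markers. Igfbp5 also had r = -0.40 with the cardiomyocyte and 0.40 with the fibroblast markers. With the fibroblast markers r ran from 0.09 for Igf1 and 0.11 for Igf2 to 0.54 for Igf2r and 0.56 for Igfbp4. These are descriptions only.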

How the data were processed

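PolyA RNA of 65 cultures in 10 groups was sequenced in paired reads. According to the labels and the study's methods, the authors assigned reads to rat transcripts with kallisto 0.46.0, summed them to genes with Entrez identifiers with tximport, and removed genes with counts below 10 throughout. The deposited values are estimated counts as whole numbers, without normalization. Transcripts can share reads between related genes, and strand was not given in the sources used here.

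Symbols came from RefSeq (GRCr8, names only; 14009 of 14554 matched). Counts were scaled with TMM and fitted in R 4.3.3 with edgeR 4.0.16 (glmQLFit, glmQLFTest), with 10 group means in 1 model and 15 contrasts, with p-values adjusted by Benjamini-Hochberg over all genes and a threshold of 0.01. The SE is the log2 fold change divided by the square root of F. Log2 CPM used a prior count of 2. The fit was also run on simulated counts in which a small share of genes changed, in Dox at 24 h only. That setting does not cover the wide changes or the unequal spread between groups of these data. The table's headers name only the group, so libraries got numbers in column order, as labels. Named genes were all members, Insr, Irs1, Irs2, Pappa, Stc1, Stc2, the 2 largest called rises and falls among the other pathway genes in each drug comparison, and the gene of most similar level to each member. Members, lists and tests were chosen with earlier results of these data known. Library depth was 14332827 to 25738297 counts, so the spread between cultures limits all members but Igfbp2. Alternatives were DESeq2 1.42.0 (Wald test and size factors), library size only, the compared groups only, filterByExpr, other thresholds and leaving out each library. A fit without the 3 libraries farthest from their groups was added after the data were seen.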

Additional observations from a re-analysis of the deposited data

Results flagged for a closer look

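Within groups, 8 of the 100 combinations of member and group held a library that stood apart from the others by Dixon's test at the 95% level, which chance alone gives in about 1 group in 20. They were Igf1r at 24.0 CPM in a DMSO2 library and 7.82 CPM in a Dox library at 6 h, Igfbp2 at 0.268 CPM (6 counts) in DMSO1 at 6 h, and Igfbp3 at 34.1 CPM in DMSO1, 29.4 CPM in 5FU and 139 CPM in Dox, all at 6 h. At 24 h they were Igfbp4 at 48.4 CPM and Igfbp5 at 110.4 CPM, both in DMSO1 library 1, which was also among the 3 libraries farthest from their own groups.

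The effect of a drug differed between 24 h and 6 h, by the interaction test, for 21 combinations of the 10 members with 5FU, Ace and Dox. Over all genes 39.5% differed with 5FU, 11.6% with Ace and 64.8% with Dox. The Dox value of Igfbp2 is conditioned on its rise there. Differences are log2 fold changes at 24 h minus those at 6 h. With 5FU they were -1.35 for Igf1, -1.38 for Igf2, -1.06 for Igf2r, -1.12 for Igfbp3, -2.14 for Igfbp4, -0.59 for Igfbp6 and -0.71 for Igfbp7. With Ace they were -1.09 for Igf1, -1.11 for Igf2, -1.22 for Igfbp3, -1.25 for Igfbp5 and -0.68 for Igfbp6. With Dox they were -1.90 for Igf1, -1.16 for Igf2, -0.84 for Igf2r, 3.10 for Igfbp2, -1.96 for Igfbp3, -1.14 for Igfbp4, -1.27 for Igfbp5, -1.42 for Igfbp6 and -0.63 for Igfbp7.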

How the results depend on the processing

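The number of members called kept to within 1.5 times its value in all 15 comparisons under DESeq2's size factors, library size only and filterByExpr. With a log2 fold change of at least 1 in size also required, it fell to 0 in 5FU, 0 in Ace and 3 in Dox at 6 h, to 1 between the DMSO controls at 6 h and 0 at 24 h, to 2 over time in the controls, and to 2 (Dox and 5FU), 2 (Ace and 5FU) and 3 (Dox and Ace) between drugs. At an FDR below 0.1 it was 5 in Ace at 6 h and 3 between the controls at 24 h. With only the compared groups fitted these were 5 and 0. Between the controls at 24 h it was 2 by DESeq2's Wald test, 0 without the 3 farthest libraries, and 0 to 2 without 1 library. No paired analysis was possible because the columns carry no replicate numbers.

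With library size alone the median log2 fold change over all genes was -0.15 in Dox at 6 h, against 0.003 with TMM. In the Dox difference over time it was 0.27, against 0.065 with TMM. Changes of sign occurred only for values not called in either fit. They were Igf1r in Ace at 6 h (0.00019, filterByExpr), Igf2 in Dox at 6 h (0.018 with DESeq2 size factors and 0.018 with its Wald test), and Igf2r between the controls at 24 h (0.041 with library size, 0.0024 with filterByExpr, 0.0061 with the compared groups, 0.045 without the 3 farthest libraries). Library size also turned Igf1r (0.017) and Igf2r (0.083) in the Ace difference over time and Igfbp3 between Ace and 5FU (0.052). Without the 3 farthest libraries the same happened to Igf1r over time in the controls (0.0070), Igfbp5 in the 5FU difference over time (-0.050), Igf2 between Dox and 5FU (0.024) and Igfbp3 between Ace and 5FU (0.078). The cause was not tested.

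Leaving out 1 library turned the sign of 13 values, none of them called. Igf1r ranged from -0.071 to 0.022 over time in the controls, from -0.16 to 0.015 in the 5FU difference over time, from -0.075 to 0.060 in Ace at 6 h and from -0.030 to 0.088 between Dox and 5FU. Igf2 in Dox at 6 h ranged from -0.032 to 0.0085. Igf2r ranged from -0.073 to 0.036 in 5FU at 6 h, from -0.079 to 0.048 in the Ace difference over time and from -0.042 to 0.043 between the controls at 24 h. Igfbp2 between the controls at 24 h ranged from -0.17 to 0.54, Igfbp3 between Ace and 5FU from -0.084 to 0.069, and Igfbp5 in the 5FU difference over time from -0.086 to 0.37. In the Ace difference over time Igfbp4 ranged from -0.039 to 0.10 and Igfbp7 from -0.044 to 0.059. Igfbp2 in 5FU at 24 h, at most 7 counts a library, was called in 3 of 12 such fits.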
